A study of Mus musculus with 60 samples.

Results

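The regions described here were the sites at which a peak of HA-tagged histone H3 was called in every independent anti-HA library of 4 histone mutants. Overlapping or touching peaks of the 8 independent anti-HA peak lists of H3R2C, H3R8C, H3R17C and H3R26C were merged into 172267 regions. Of these, 3609 (2.10%) held a peak in all 8 lists and are called recurrent HA regions. The members were thus chosen by their HA peaks in these 8 lists, so the HA signal of the mutants is given below as a description, without tests.

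The data came from CUT&RUN, in which fragments cut out by a nuclease that an antibody has tethered to chromatin are read by sequencing. C3H 10T1/2 (Clone 8) cells, a mouse mesenchymal progenitor line, carried a lentiviral transgene with human H3C2 cDNA tagged with HA and FLAG at its C terminus. The transgene was driven by an EF1 promoter in pools of puromycin-selected cells, and it coded for wild type H3 (H3WT) or for H3 with arginine 2, 8, 17 or 26 of the tail changed to cysteine (H3R2C, H3R8C, H3R17C and H3R26C). The cells of every group kept their endogenous H3 genes, so the tagged histone was one part of the H3 pool. In each of the 10 groups analysed (5 genotypes with anti-HA or anti-H3K27me3), 2 of the 3 labelled replicates had identical peak lists, which left 2 different lists per group, each treated as 1 library. The study describes its replicates as independent, but whether an identical list came from 1 of the samples or from both pooled was not given in the sources used here, so p-values measure the spread between these lists only. In H3R17C with anti-H3K27me3, 1 of the lists carries another mark in its deposited name. Among the anti-HA samples, the read totals that the study lists are highest in H3WT replicates 2 and 3, whereas H3WT replicate 1 lies within the range of the mutants. Differences in HA signal between H3WT and the mutants can therefore move with depth.

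Histone H3 of the kind made from H3C2 is laid down mainly behind the replication fork, and an HA antibody reports where the tagged copy sits rather than a modification. H3K27me3 is set by Polycomb Repressive Complex 2 and marks repressed developmental genes. Centromeres and their flanks consist of long arrays of satellite repeats packed in heterochromatin, of which a genome assembly shows only fragments.

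The highest signal at recurrent HA regions lay on short stretches of repeated sequence, and the windows below show it. Each is 200 bases of the plus strand of mm10 around the point of highest HA signal, with the 50 bases at that point in capitals. Sites are numbered by the median over the 8 lists of maximum signal, scaled to the median of the list over all recurrent HA regions. Sites 1, 2, 3 and 7 are shown because they repeat one another's bases, and sites 4 and 8 because they form a second pair within these windows.

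site 1, chr2:98667026-98667225: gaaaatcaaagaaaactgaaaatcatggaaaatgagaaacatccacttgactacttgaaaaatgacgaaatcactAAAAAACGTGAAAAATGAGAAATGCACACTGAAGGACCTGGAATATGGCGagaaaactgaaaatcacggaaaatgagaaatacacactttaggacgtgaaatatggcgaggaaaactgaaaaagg
site 2, chr14:19417226-19417425: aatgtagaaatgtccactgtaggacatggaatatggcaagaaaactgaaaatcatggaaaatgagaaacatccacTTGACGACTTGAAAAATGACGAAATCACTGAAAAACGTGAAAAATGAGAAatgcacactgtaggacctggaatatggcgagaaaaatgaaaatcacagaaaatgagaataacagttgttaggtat
site 3, chr12:3109826-3110025: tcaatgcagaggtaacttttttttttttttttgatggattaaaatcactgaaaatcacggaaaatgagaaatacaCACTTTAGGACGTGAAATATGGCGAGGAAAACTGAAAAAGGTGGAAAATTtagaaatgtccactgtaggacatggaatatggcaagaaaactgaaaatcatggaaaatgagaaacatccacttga
site 7, chr9:3000876-3001075: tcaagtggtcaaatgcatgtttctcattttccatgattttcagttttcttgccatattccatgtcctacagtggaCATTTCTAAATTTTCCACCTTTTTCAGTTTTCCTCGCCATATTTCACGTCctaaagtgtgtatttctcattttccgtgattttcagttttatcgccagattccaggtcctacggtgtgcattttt
site 4, chr6:103649126-103649325: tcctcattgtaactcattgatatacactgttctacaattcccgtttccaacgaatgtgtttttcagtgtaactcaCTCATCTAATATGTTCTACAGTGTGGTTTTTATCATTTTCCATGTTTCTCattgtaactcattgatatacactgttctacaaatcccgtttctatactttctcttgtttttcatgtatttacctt
site 8, chrX:143482976-143483175: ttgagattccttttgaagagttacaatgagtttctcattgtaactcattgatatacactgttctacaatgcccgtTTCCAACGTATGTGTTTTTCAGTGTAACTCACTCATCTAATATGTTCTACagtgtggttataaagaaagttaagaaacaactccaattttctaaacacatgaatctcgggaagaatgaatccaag

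Sites 3 and 7 shared an identical run of 146 bases on opposite strands, and sites 1 and 3 shared a run of 70 bases on the same strand. Site 7 was a region of 38.75 kb at the start of the assembled part of chromosome 9, whose bases repeated themselves at a shift of 234 bp with 70.9% identity. A repeat of this length is known as major satellite, the DNA of mouse pericentromeric heterochromatin. Sites 4 and 8 shared a run of 50 bases, whereas neither shared a run longer than 13 bases with the other sites shown. Wider windows of 1000 bp were grouped where at least 50 words of 16 bases were shared, directly or through other sites. There sites 4 and 8 fell in the same group as sites 1, 2, 3 and 7. The window of 300 bp around site 4 held the motif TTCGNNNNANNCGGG on one of its strands, the core of the box that the centromere protein CENP-B binds in mouse minor satellite. Searched on both strands, this motif stood in the windows of 2 of the 3609 recurrent HA regions (0.0554%, sites 4 and 13) and of 17 of the 168657 other merged HA regions with a nuclear position (0.0101%).

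Most merged HA regions were called once. A peak in 1 list only was seen at 110017 regions and a peak in 7 lists at 3004, fewer than the 3609 regions with a peak in all 8. Recurrent HA regions had a median width of 6.60 kb (interquartile range 4.30 to 10.0 kb, range 0.15 to 69.45 kb), whereas regions in 1 list had a median of 0.95 kb. Merging itself widens a region that many lists share, so the widths are not independent of the rule. Together the recurrent HA regions covered 29.5 Mb, or 1.08% of the genome, and held between 67.6% and 75.6% of the total signal of each mutant list.

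The 2 anti-HA lists of H3WT were not used by the rule. A peak of the list shared by H3WT replicates 1 and 2 overlapped 83.2% of the recurrent HA regions, and a peak of H3WT replicate 3 overlapped 97.5%. Both lists had a peak at 2967 regions (82.2%) and neither at 56. Among regions in 1 to 7 mutant lists, these shares were 26.9% and 23.8%. They increased at every step with the number of mutant lists, from 18.4% and 11.9% at regions in 1 list to 70.7% and 91.1% at regions in 7 lists. The H3WT lists covered 7.83% and 4.94% of the genome. Peaks of the first list numbered 15344 and were wide (median 10.7 kb), and those of the second numbered 37907 (median 2.65 kb), so the 2 lists are given apart. Width moved with these shares, and its part in them was not tested.

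**Figure D1:**
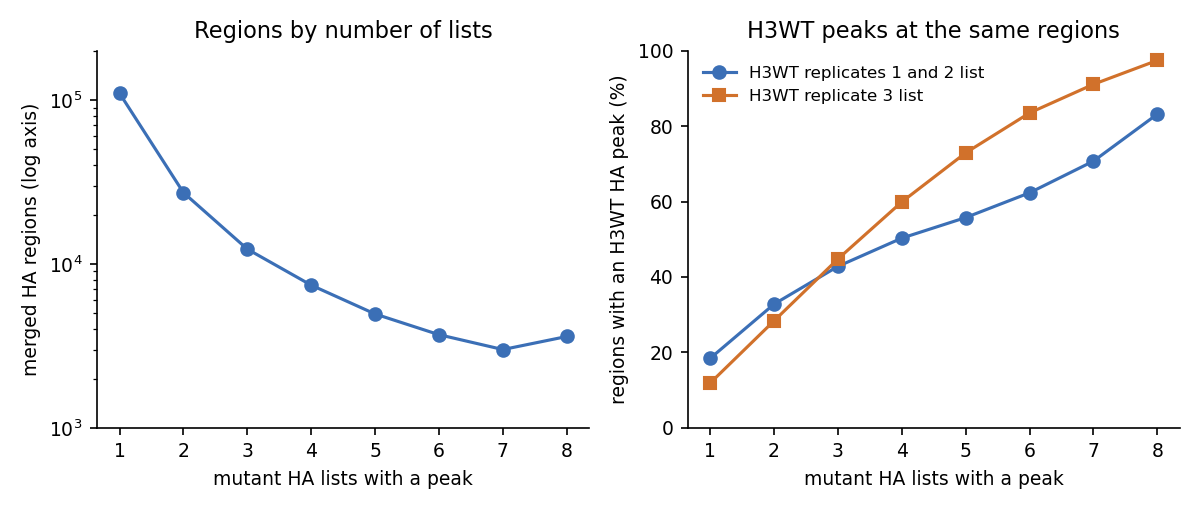
Left, number of merged HA regions (log axis) by the number of the 8 mutant HA lists with a peak there, from 110017 regions in 1 list to 3609 in 8. Right, percent of those regions overlapped by a peak of each H3WT anti-HA list, which rises to 83.2% and 97.5% at the regions in all 8 lists.

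Signal at an ordinary recurrent HA region was low. The median over recurrent HA regions of the maximum signal, which is the highest coverage within the peak, was between 6 and 10 in the 8 mutant lists, against 4 to 6 at the other regions of each list. In the H3WT lists it was 24 and 13, against 17 and 9 at other regions with an H3WT peak. The median total signal, the sum of coverage along the peak, ranged from 3850 in the list of H3R2C replicates 1 and 2 to 17200 in that of H3R8C replicates 1 and 2. These values were not scaled for depth, and the lowest total that a mutant list kept was also lowest and highest in these lists (1350 and 3250). Peaks covered a median of 25.3% of the bases of a recurrent HA region in H3R2C replicates 1 and 2 and 75.6% in H3R8C replicates 1 and 2, so the merged region was often wider than the peak of a single list.

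At the edge of the rule, the 3 recurrent HA regions with the lowest median scaled total signal lay in introns of Ppard (chr17:28267601-28269300, 0.247 of the list median), which codes for a lipid-sensing nuclear receptor, of Nlrc5 (chr8:94451401-94456100, 0.264), a regulator of MHC class I genes, and of a long non-coding RNA, C230088H06Rik (chr4:147234751-147236750, 0.264). The 3 regions in 7 lists with the highest signal had values of 2.61 in Ahnak (chr19:9062601-9072650), 2.45 near Fbp1 (chr13:62934551-62955050) and 2.24 near Tmem92 (chr11:94849951-94858900).

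A median maximum signal of at least 10 times the list median was found at 53 regions (1.47% of the recurrent HA regions). These sites held between 53.2% and 67.1% of the total signal of each mutant list, and the other 3556 regions held between 8.42% and 15.2%. In the H3WT lists the 53 sites held 41.0% and 48.8%. The value was above 1000 times the list median at 7 sites and above 100 times at 13 sites. The highest recurrent HA region below the limit had a value of 9.68 and the lowest above it 10.0, so the limit does not mark a gap. Without the 53 sites, the remaining recurrent HA regions held between 25.6% and 32.9% of what was left of each mutant list.

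Site 1 (chr2:98664801-98667900) lay at the start of Gm10800, a predicted gene. Its maximum signal was 241402 in the lowest mutant list, 331957 at the median and 618446 in the highest, and 1730260 and 842809 in the H3WT lists. All 8 mutant lists were below both H3WT lists on this scale, which is not corrected for depth, and the order turned with scaling. Total signal scaled to the list median was 9592 to 26277 in the mutant lists and 2763 and 6618 in the H3WT lists. This site alone held between 26.4% and 34.0% of the signal of each mutant list, and its peak held 21.8% and 24.4% of that of the H3WT lists. In H3WT replicates 1 and 2 that peak also spanned sites 6 and 11, so the 21.8% and the 2763 include their signal. In the mutant lists sites 1 to 3 held between 43.5% and 55.1%. Site 2 (chr14:19415401-19419750) lay in an exon of Gm21738, also a predicted gene, with a maximum signal from 156243 to 392526 in the mutant lists. Site 3 (chr12:3109551-3110300) was intergenic, about 110 kb from the first assembled base of its chromosome, with 80906 to 202529.

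Site 4 (chr6:103648901-103649500) lay in an intron of Chl1, which codes for a neural cell adhesion molecule, with a maximum signal from 29854 to 64383 in the mutant lists. Site 5 (chr9:35305001-35305600) lay in an intron of the long non-coding RNA Gm33838, with 16241 to 41580. Site 6 (chr2:98661901-98663050) was near site 1, at the start of Gm10801. A single broad peak of H3WT replicates 1 and 2 spanned both, and site 11 (chr2:98663451-98664450) between them. The remaining 4 of the 10 highest sites were site 7 (chr9:2999951-3038700, Gm10722 and 8 neighbouring predicted genes), site 8 (chrX:143482701-143483300, intergenic), site 9 (chr13:77438651-77439150, an intron of 2210408I21Rik) and site 10 (chr4:70377701-70378750, an intron of Cdk5rap2, a centrosome gene). At site 10 the mutant lists were between 1228 and 3489.

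**Figure D2:**
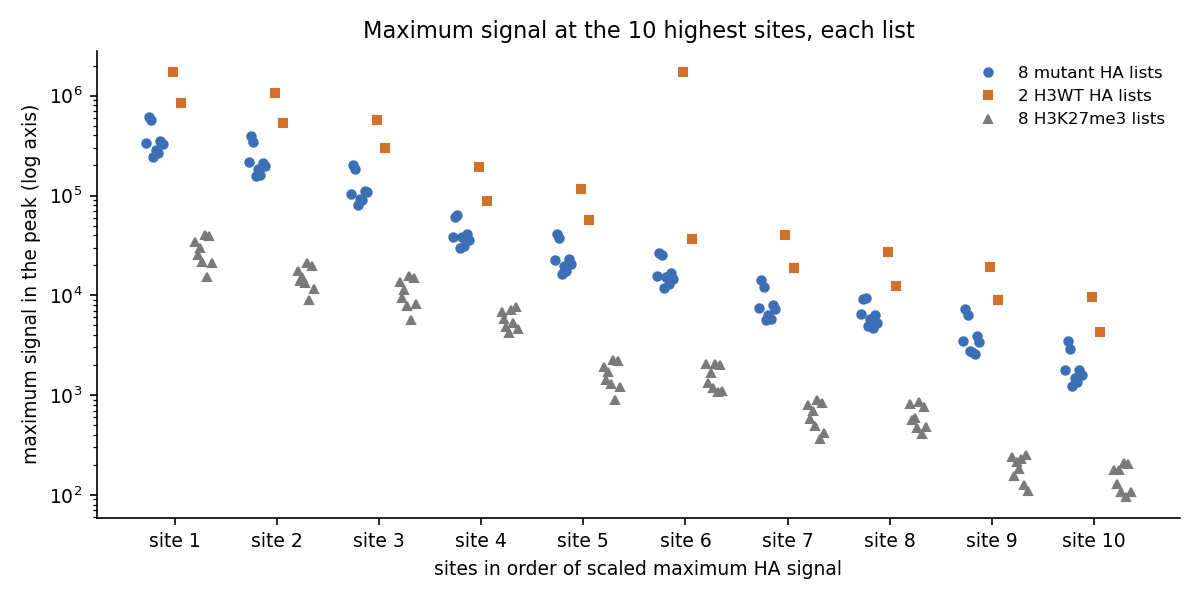
Maximum signal in the overlapping peak (log axis) at the 10 highest sites, with 1 point for each of the 8 mutant HA lists, 2 H3WT HA lists and 8 H3K27me3 lists. Without correction for depth, both H3WT lists lie above the 8 mutant lists and the H3K27me3 lists lie lowest, whereas on total signal scaled to the list median both H3WT lists were below the mutant lists at every site but site 6, where 1 broad H3WT peak also spans site 1.

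Repeated sequence moved with the extreme sites. The 32-base words within the 50 bases at the summit occurred in a median of more than 1 place in the reference at 30 of the 53 sites (56.6%) and at 667 of the other 3556 recurrent HA regions (18.8%). In regions in 1 list the share was 7.06% and in regions in 7 lists 12.4%. A window of 300 bp that shared at least 50 of its 16-base words with site 7 was found at 13 of the 53 sites, 7 of them among the 10 highest, and at 0 of the other 3556 recurrent HA regions and 0 of the 168657 other merged HA regions. These 13 sites included site 7 itself, and they held between 51.1% and 64.4% of the signal of each mutant list and 39.3% and 46.9% of that of the H3WT lists. None of the 53 windows shared a 32-base word with the mitochondrial genome. How the authors treated reads that align to several places was not given in the sources used here, so its part in the height of these sites was not tested.

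The shape of the extreme sites was shared between libraries. The summit was the midpoint of the stretch of highest signal in the list with the highest scaled maximum. At 31 of the 53 sites the stretch of highest signal of all 8 mutant lists covered that midpoint, with a median of 8 lists. The median at the other recurrent HA regions was 1 list, which can be the list that gave the midpoint. Rank correlations of total signal over the 53 sites were between 0.976 and 0.991 for lists of different genotypes and between 0.986 and 0.995 within a genotype. Over the other 3556 regions they were between 0.428 and 0.801 between genotypes and between 0.635 and 0.817 within a genotype. These are descriptions over regions that share libraries and were chosen for a peak in every list. H3R2C had the highest mean scaled total signal of the 4 mutants at 45 of the 53 sites and H3R17C at 8. At the other 3556 regions H3R2C had the highest mean at 35.1%, also the largest share of the 4. Both H3R2C lists were above all other mutant lists at 18 of the 53 sites (34.0%) and at 13.0% of the other regions. The H3R2C list of replicates 1 and 2, in which peaks covered least of the members, also had the highest share of its signal at the 53 sites.

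Further extreme sites included chr17:39842551-39848850, at Gm26917, with a scaled maximum of 13.7 and a GC content of 63.7% at its summit, and chr16:10970151-10977100, at the start of Litaf, a gene for an endosomal protein, with 10.0. The summit words of the latter stood in a median of 147.5 places of the reference. Genes with an extreme site inside an intron included Ank1 (61.3), Mamdc2 (80.1), Mdga2 (82.5), Vps45 (24.6) and Cobl (13.1). A total of 8 of the 53 sites lay within 500 kb of the first assembled base of a chromosome, where mouse centromeres lie, as did 37 of the other recurrent HA regions.

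An H3K27me3 peak stood at many extreme sites. All 8 H3K27me3 lists of H3WT, H3R2C, H3R8C and H3R26C had a peak at 26 of the 53 sites, among them the 10 highest, and none had one at 14. At site 1 the H3K27me3 maximum was between 15301 and 40031, with a median of 27417. The list labelled as H3K27me3 of H3R17C replicate 1, whose deposited name gives another mark, had 96501 there and a peak at 52 of the 53 sites. The HA lists, the H3K27me3 lists and this list thus all had signal at the same sites, and IgG libraries were not analysed here.

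Recurrent HA regions were unevenly spread over chromosomes. Chromosomes 8, 11, 15 and 17 make up 16.5% of the genome and held 1952 of the recurrent HA regions (54.1%). Chromosome 11 had 693 (5.68 per Mb) and chromosome 15 had 574 (5.52 per Mb), against a median over chromosomes of 0.743 per Mb. The lowest densities were on chromosomes Y (0.153 per Mb), 18 (0.221 per Mb) and 3 (0.231 per Mb).

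**Figure D3:**
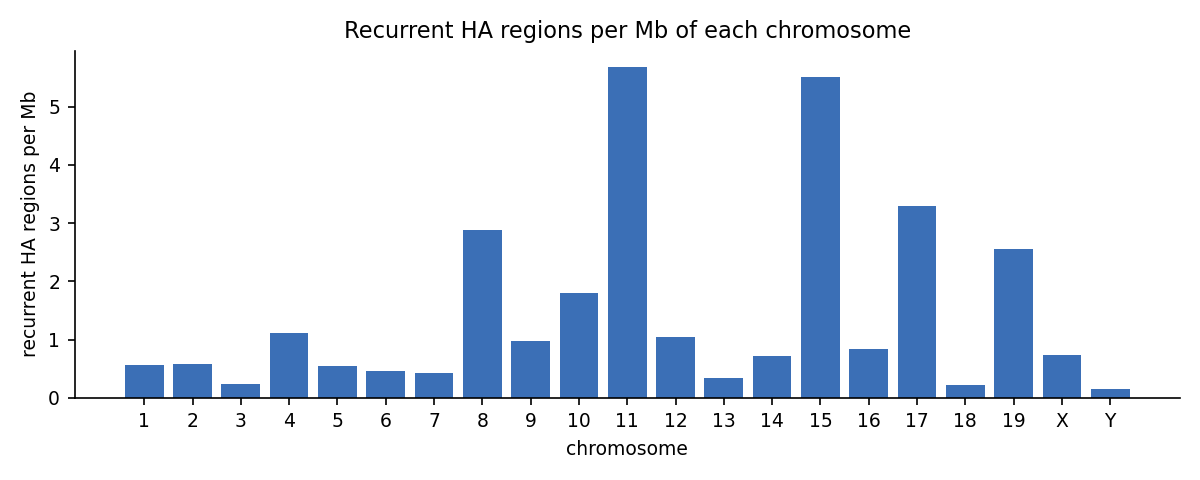
Recurrent HA regions per Mb of each chromosome. Chromosomes 11 and 15 reach 5.68 and 5.52 per Mb, and the median over chromosomes is 0.743 per Mb.

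Within chromosomes the members were clustered. Of 2737 bins of 1 Mb, 112 (4.09%) held at least 10 recurrent HA regions each and together 2342 of them (64.9%). The densest were chr11:116000001-117000000 with 63 and chr11:120000001-121000000 with 59. In these bins the H3WT lists covered 75.2% and 76.7%, and 78.8% and 82.1% of the bases, and the mutant lists from 22.0% to 66.9% and from 24.6% to 69.8%. Both are gene-rich, with 36 and 48 protein-coding genes. Over all 112 bins the density of protein-coding genes was 21.5 per Mb against 8.05 per Mb in the genome, a ratio of 2.67.

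Coverage in the 112 bins relative to the genome was between 6.39 and 8.74 times for the 8 mutant HA lists, 5.33 and 7.50 times for the H3WT lists, and between 1.31 and 2.35 times for the 8 H3K27me3 lists. The clustering was thus present in the H3WT lists, which the rule did not use, and was smaller in the H3K27me3 lists. Copy number of the chromosomes of this line was not measured here, and its part in the clustering was not tested.

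The dense bins were of more than one kind. At 52 of the 112 no recurrent HA region had a summit sequence that occurs more than once in the reference, among them chr11:120000001-121000000. In 16 bins at least 50% of the members did. These 16 bins held 340 members, and they included chr8:20000001-21000000, with 53 of 54 members, chr1:85000001-86000000, with 43 of 43, and chr4:147000001-148000000, with 27 of 39. Over all 112 bins, 371 members (15.8%) had a repeated summit, below the 19.3% of all recurrent HA regions. Recurrent HA regions with a repeated summit were narrower than the others (median 3.80 kb and 7.20 kb), and a peak in the list of H3WT replicates 1 and 2 was less frequent at them (64% and 87.8%). In H3WT replicate 3 the shares were 94.5% and 98.1%.

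The 3 widest recurrent HA regions were below the limit for extreme sites in maximum signal. The widest (chr10:83834401-83903850, 69.45 kb) was intergenic, 164 kb from the nearest protein-coding start, with no H3K27me3 peak in any of the 8 lists. The next (chr1:88211401-88270900, 59.5 kb) spanned part of the Ugt1a cluster, which codes for enzymes that attach glucuronic acid to bilirubin and drugs, as well as Mroh2a and Hjurp, the chaperone of the centromeric H3 variant, and all 8 H3K27me3 lists had a peak there. The last (chr15:99491751-99551100, 59.35 kb) overlapped Faim2, an inhibitor of cell death in neurons, without an H3K27me3 peak. Their median scaled maxima were 1.69, 1.54 and 1.66, and the median over the recurrent HA regions below the limit of 10 was 0.967.

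The summit of a recurrent HA region lay within 1 kb of a transcription start site at 333 regions (9.23%), in an exon at 5.65%, in an intron at 41.1% and between genes at 44.0%. In regions in 1 to 7 lists these shares were 6.62%, 3.91%, 44.9% and 44.6%. The shares near start sites and in exons were higher at recurrent HA regions, which were also wider. By bases, 47.3% of the length of recurrent HA regions lay in protein-coding genes, against 46.9% for all merged HA regions and 38.2% for the genome. The median GC content of the 300 bp around the summit was 48.0%, against 43.3% in regions in 1 list, and it increased with the number of lists to 48.0% in 7 lists. CpG-rich windows, with a GC content of at least 50% and an observed to expected CpG ratio of at least 0.6, were rare (2.99% of the recurrent HA regions and 1.83% of those in 1 to 7 lists).

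Of 21911 protein-coding genes, 766 (3.50%) had a recurrent HA region within 1 kb of a start site. Counts in the gene lists are set beside that share. Among 17 mesenchymal and fibroblast genes, 2 had one. The region at Col5a1, a fibrillar collagen gene, was 9.30 kb wide (chr2:27877851-27887150) with a maximum signal from 5 to 11 in the mutant lists. The region at Eng, which codes for a TGF-beta co-receptor, was 8.20 kb wide (chr2:32641601-32649800) with 5 to 10. Both H3WT lists had a peak at each of them, and none of the H3K27me3 lists did.

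Lineage genes with a member at a start were few. Sp7, a transcription factor of bone formation, had a region of 13.65 kb (chr15:102355751-102369400) with a maximum signal from 5 to 12 in the mutant lists and of 45 and 15 in the H3WT lists. It was the bone gene with such a region among 5, and Runx2, the upstream factor of that lineage, had a recurrent HA region in its body, as did 6.17% of all protein-coding genes. Col2a1, the collagen of cartilage, had a region of 6.95 kb (chr15:98002901-98009850) with 4 to 10, and no peak of H3WT replicates 1 and 2. Comp, another gene of the cartilage list, had a recurrent HA region in its body. None of 5 muscle genes and none of 5 fat genes had a recurrent HA region at a start or in the body, which lists of 5 genes cannot set apart from these shares.

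No recurrent HA region lay within 1 kb of a start of the 67 replication-dependent histone genes, the 39 Hox genes, the 23 imprinted genes, the 20 chromatin and PRC2 genes or the 12 housekeeping genes. Beside a share of 3.50% among all genes, a count of 0 in lists of this size is not read as a difference. Of 83 ribosomal protein genes, 1 had one, the muscle-specific Rpl3l (chr17:24731451-24738650). Of 1092 olfactory receptor genes, 7 did (0.641%), among them Olfr223 (chr11:59578251-59597600) and the neighbours Olfr70 and Olfr71, which shared a region (chr4:43700251-43714200). Away from starts, 2 of the 20 chromatin and PRC2 genes, Ezh1 and Jarid2, had a recurrent HA region in the body (10.0%). The share among all protein-coding genes was 6.17%, from which a list of 20 genes cannot be set apart.

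The cell type on the label was checked only through the repressive mark, since RNA and the samples of H3K4me3, a mark of active promoters, were not analysed here. In the H3WT lists, an H3K27me3 peak lay within 1 kb of a start of 0 of the 17 mesenchymal and fibroblast genes, 0 of 5 bone genes, 0 of 5 fat genes and 0 of the 12 housekeeping genes. It did at 2 of 5 muscle genes, 2 of 5 cartilage genes, 31 of 39 Hox genes and 2777 of the 21911 protein-coding genes. The lists of 5, 12 and 17 genes are too small to be set apart from the share of all genes, so these counts do not establish the cell type.

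The H3K27me3 lists were not used by the rule, so whether the mark at these regions differs between genotypes could be tested. A peak overlapped 9.81% and 10.9% of the recurrent HA regions in the 2 H3WT libraries, 14.0% and 12.6% in H3R2C, 10.6% and 10.6% in H3R8C and 8.28% and 7.56% in H3R26C. H3R2C was thus above all other libraries and H3R26C below, with no overlap with H3WT. The mean of the H3R2C and H3R26C libraries was 10.6% ± 3.19 (SD, n = 4) and that of the H3WT and H3R8C libraries 10.5% ± 0.459 (SD, n = 4), and the difference did not pass an exact permutation test (two-sided, p = 0.914, smallest possible 0.0286). The pooled mean averages 2 mutants that lay on opposite sides of H3WT, so this test cannot show a difference of either one. With 2 libraries against 2, an exact test of H3R2C or of H3R26C alone against H3WT cannot go below p = 0.333. At HA regions in 7 lists the shares were 6.62% and 7.79% in H3WT, 10.7% and 9.12% in H3R2C and 4.86% and 3.79% in H3R26C. At HA regions in 1 to 7 lists they were, in the same order, 6.93% and 7.28%, 10.2% and 7.46%, and 6.70% and 4.36%. The order of these genotypes was thus not particular to recurrent HA regions.

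Most recurrent HA regions lacked the mark. No list of these 8 had a peak at 2968 of the 3609 (82.2%), all 8 had one at 181 (5.02%), and 460 were between. Among the other merged HA regions, these shares were 86.5% for none and 2.59% for all 8. In each of the 8 libraries the share with an H3K27me3 peak was higher at recurrent than at other HA regions, by 1.24 to 1.73 times, and recurrent HA regions were wider. In the H3R17C list of replicates 2 and 3 the share was 10.1%. The list labelled as H3K27me3 of H3R17C replicate 1 had a peak at 32.9% of the recurrent HA regions, and 21.9% of the summits of its peaks lay within 1 kb of a start site, against 5.70% to 8.51% in the 8 lists tested. That library was kept out of the tests.

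**Figure D4:**
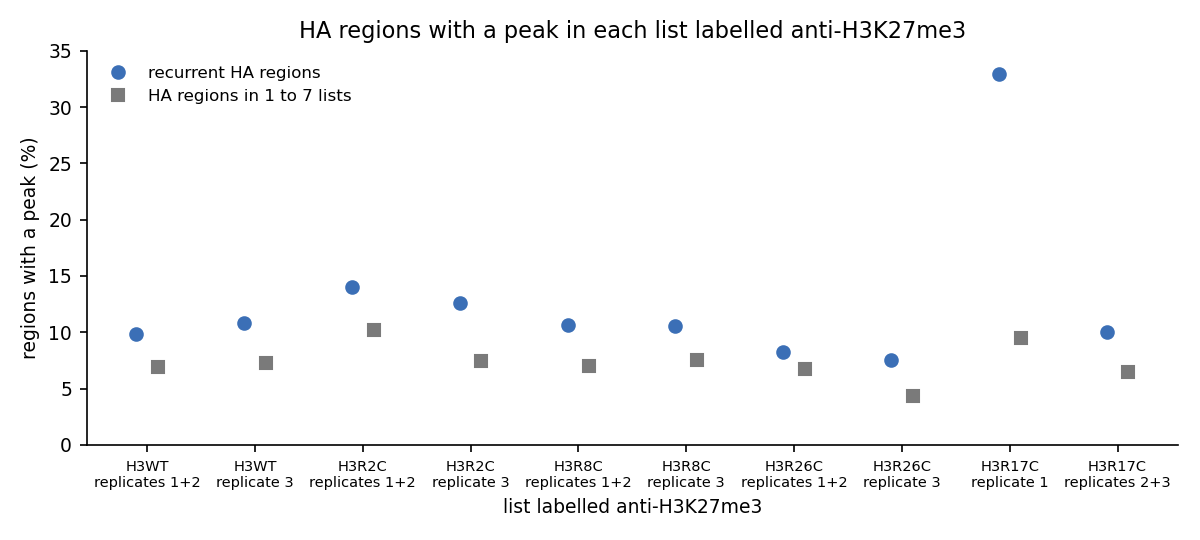
Percent of recurrent HA regions (circles) and of HA regions in 1 to 7 lists (squares) overlapped by a peak of each list labelled anti-H3K27me3. H3R2C lies at 14.0% and 12.6%, H3R26C at 8.28% and 7.56%, and the list of H3R17C replicate 1, whose deposited name gives another mark, at 32.9%.

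The signal of H3K27me3 was then compared by limma over 20900 regions that were called in each of the 2 libraries of a genotype, whichever it was, of which 481 overlapped a recurrent HA region. In H3R2C, 148 of the 481 (30.8%) were higher than in H3WT and 29 (6.03%) lower. Among all 20900 regions, 17.7% were called higher and 12.5% lower. In H3R26C lower calls were the more frequent, with 100 of the 481 (20.8%) lower than in H3WT and 21 (4.37%) higher. Among all regions tested, 7.26% were called lower and 8.46% higher. Of the 481, 8 were higher in H3R2C and lower in H3R26C, and 1 was the reverse. A further 10 were lower in both mutants and 7 higher in both. These overlaps were not counted over all 20900 regions, so they are not read as a result about recurrent HA regions. In these bulk libraries a loss of the mark in some of the cells cannot be told apart from a lower level in every cell.

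In H3R8C, 8 of the 481 were lower and 10 higher, against a background of 2.66% lower and 3.30% higher. For H3R2C with H3R26C against H3WT with H3R8C, 93 were lower (19.3%, background 14.9%) and 155 higher (32.2%, background 21.4%). The median log2 difference over the 481 regions was 0.46 in H3R2C against H3WT, where the median of all regions was 0.00, and 0.00 in H3R26C against H3WT, the same as over all regions. With only the regions called in all 8 libraries, the H3R2C median was 0.20, against 0.02 over all such regions. These comparisons share the H3WT libraries, so H3R26C was also set against H3R2C directly, a contrast added after the data were seen. In it 233 of the 481 (48.4%) were lower in H3R26C and 36 (7.48%) higher, against a background of 22.7% and 18.9%.

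**Figure D5:**
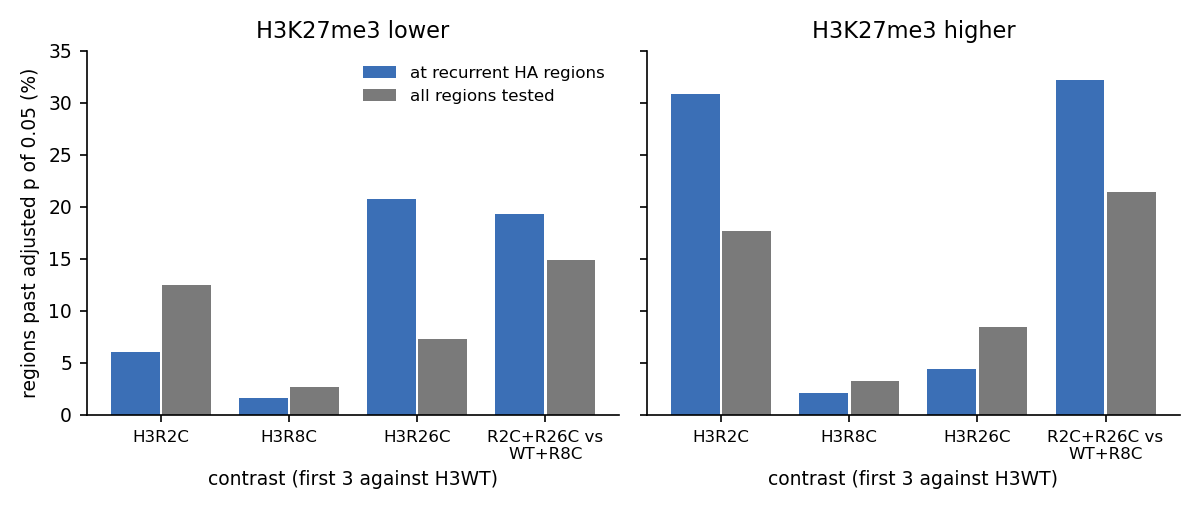
Percent of H3K27me3 regions called lower (left) or higher (right) by limma at an adjusted p of 0.05, for the 481 regions at recurrent HA regions (blue) and all 20900 regions tested (grey). At recurrent HA regions 30.8% were higher in H3R2C and 20.8% were lower in H3R26C, against 17.7% and 7.26% of all regions. Regions entered through the genotypes in which they were called, which favours regions that differ. With only regions called in all 8 libraries, H3R2C had 23.5% higher and 5.46% lower, against 12.6% and 14.0%. In that set H3R26C had 26.2% lower and 12.6% higher, against 9.89% and 7.44%.

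A region entered the fit through the genotypes in which it was called, which favours regions that differ. With only the 5589 regions called in all 8 libraries, 183 of them at recurrent HA regions, H3R2C had 43 higher (23.5%) and 10 lower (5.46%), against a background of 12.6% and 14.0%. H3R26C had 48 lower (26.2%) and 23 higher (12.6%), against 9.89% and 7.44%, so that its share of higher calls was above the background here and below it among the 481. Of the 36 regions at extreme sites, 2 were higher and 2 lower in H3R2C, and 1 was higher and none lower in H3R26C, so the calls lay almost entirely at ordinary recurrent HA regions. The H3R2C count was 117 in both directions together without H3R2C replicate 3, and the H3R26C count 75 without H3WT replicate 3.

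Named regions show how such a difference looked. Signal is given here relative to the median of each library over regions called in all 8. At Nkx2-5 (chr17:26831701-26853000), a transcription factor of heart development, it was 4.49 and 5.12 in H3WT, 0.363 and 0.232 in H3R2C, 5.17 and 5.24 in H3R8C and 1.04 and 1.3 in H3R26C. Both H3R2C and both H3R26C libraries were below all H3WT and H3R8C libraries. The log2 difference of H3R2C from H3WT was -3.22 ± 0.17 (SE, limma adjusted p = 7.86e-05).

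A region of 46.5 kb on chromosome 15 (chr15:102784451-102830950), 62.3 kb from the nearest protein-coding start, had 2.88 and 2.23 in H3WT and 8.64 and 8.39 in H3R8C. It was listed at 0 in both H3R2C libraries (limma adjusted p = 7.86e-05) and was at 0.644 and 0.612 in H3R26C. A region in Meioc, a gene of meiosis (chr11:102670601-102676100), had 0.447 and 0.463 in H3WT and was listed at 0 in the 6 mutant libraries.

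At the 3 regions with the lowest adjusted p among those lower in H3R26C, the other 3 genotypes had signal. The region chr6:4368301-4399050, 106 kb from the start of Col1a2, a main collagen gene of fibroblasts, had 6.64 and 5.49 in H3WT, 4.39 and 4.92 in H3R2C and 7.20 and 5.61 in H3R8C, and it was listed at 0 in both H3R26C libraries (limma adjusted p = 0.00016). The region chr8:37076301-37085750 had 1.73 and 1.59 in H3WT and between 1.46 and 1.80 in H3R2C and H3R8C, and it was listed at 0 in H3R26C. At Lrrc74a (chr12:86727051-86746350) H3WT had 3.04 and 2.94, and H3R26C was again listed at 0.

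The regions called higher with the lowest adjusted p had low signal. In H3R2C these were chr15:97709451-97712600 at Endou, a gene for an endonuclease, with 0.267 and 0.259, chr10:76741251-76743550, 15.1 kb from Col6a1, with 0.173 and 0.180, and chr19:5578101-5580600 with 0.212 and 0.200. All 3 were listed at 0 in the other 6 libraries, so no fold is given. In H3R26C they were 3 regions on chromosome 5, of which chr5:15600851-15602800 and chr5:15607601-15609550 had Speer4d as the nearest protein-coding start and chr5:15460001-15463700 had Gm21149. They were between 0.168 and 0.394 in its libraries and listed at 0 elsewhere. Low signal that is close between the libraries of a genotype gives a small spread, and peaks just under the threshold of a list count as 0.

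In H3R8C the lowest adjusted p among lower regions after Meioc was at chr15:41114801-41143550, with 0.350 and 0.207 against 2.75 and 2.15 in H3WT (log2 difference -2.36 ± 0.26 (SE), limma adjusted p = 0.00309), and at Igfn1 (chr1:135958451-136002550), with 0.171 and 0.139 against 1.47 and 2.65. Its higher regions were chr14:8286601-8286850, at an extreme site, chr15:11036451-11038700 at Rxfp3, a gene for a relaxin family receptor, and chr4:11179901-11183100. They were between 0.130 and 0.347 in H3R8C and listed at 0 in the other libraries. For the pooled contrast the rule named the regions on chromosomes 15, 6 and 17 already given among those lower and the 3 regions of H3R2C among those higher.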

How the data were processed

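CUT&RUN peak lists of 30 samples, anti-HA and anti-H3K27me3 in 5 genotypes, were used, and the 30 other samples (IgG and anti-H3K4me3) were not analysed here. Single-end reads had been aligned by the authors with Rsubread (mm10), and SEACR (version 1.3) had called the peaks. The deposited lists give total and maximum signal per peak, which is coverage not scaled for depth. The lists hold no read totals. Those in the study's reporting summary were not used, because identical lists stand for samples with different totals, so no counting interval is given. The submitters' processing notes also name ChIPseeker (version 1.28.3) and DESeq2. Identical lists of a group were counted once.

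Peaks that overlapped or touched were merged, and overlap means at least 1 bp. Each signal was scaled to the median of its list over recurrent HA regions. Genes came from GENCODE M21 and sequence from RefSeq GRCm38, the same build as mm10, with copies counted as exact 32-base words on both strands.

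H3K27me3 signal was tested with limma (version 3.58.1 in R 4.3.3, eBayes with trend) on log2(scaled signal + 0.25), with Benjamini-Hochberg adjustment over 20900 regions and a threshold of 0.05, after a test on simulated data. Shares were compared with an exact permutation test of library values. Members, gene lists and tests were chosen with earlier results of these data known. Regions named were the 10 with the highest scaled maximum, the 3 widest, the 3 just inside and outside the rule, up to 3 genes per list and, per contrast, the 3 lower and 3 higher with the lowest adjusted p. Further extreme sites were chosen after their values were seen. The alternatives covered peak number, merging, overlap, scaling, pseudocount, filters and libraries left out.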

Additional observations from a re-analysis of the deposited data

Results flagged for a closer look

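The share of recurrent HA regions with an H3K27me3 peak moved in opposite directions in 2 mutants. Both H3R2C libraries were above both H3WT libraries, with a mean difference of 2.99 percentage points (13.3% ± 1.02 against 10.3% ± 0.745, SD, n = 2 each), and both H3R26C libraries were below, with a difference of -2.41 points (7.92% ± 0.509). The difference between these shares was not tested. At HA regions in 7 lists H3R2C was also above H3WT (10.7% and 9.12% against 6.62% and 7.79%) and H3R26C below (4.86% and 3.79%). By signal, the direct contrast of H3R26C with H3R2C called 269 of the 481 H3K27me3 regions at recurrent HA regions (limma, adjusted p under 0.05). Of the 481, 48.4% were lower in H3R26C and 7.48% higher, against 22.7% and 18.9% of all 20900 regions tested.

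The list labelled as H3K27me3 of H3R17C replicate 1, which entered no comparison, had a peak at 32.9% of the recurrent HA regions, above the 9.81% and 10.9% of the H3WT lists. In 7 sets of values over 4 or 8 libraries searched for a library far from the rest, 0 was found, and chance alone gives about 1 in 20.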

How the results depend on the processing

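The number of recurrent HA regions, 3609, was 1836 with the upper 50% of peaks, 1273 with equal numbers of top peaks, 1657 without chromosomes 8, 11, 15 and 17 (an alternative added after the data were seen) and between 3577 and 4599 without 1 mutant library. The share with a peak in both H3WT lists, 82.2%, was in the same order 79.5%, 89.5%, 79.5% and 80.1% to 81.5%. It was 83.9% with merging within 1 kb, 74.5% with 50% overlap and 97.5% in H3WT replicate 3 alone. The share near start sites, 9.23%, was 10.3% with merging, 21.7% within 3 kb, 31.8% for any overlap of the region and 8.21% to 10.1% without 1 library. In regions in 1 to 7 lists, the shares within 3 kb and for any overlap were 16% and 10.2%. The median share of list signal, 69.7%, was 77.1% with the upper 50% of peaks, 81.1% with equal numbers, 78.6% with merging, 61.9% in intervals under all 8 peaks, 80.2% by maximum, 62.0% without those chromosomes and 69.0% to 71.1% without 1 library.

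The pooled H3K27me3 difference, 0.152 percentage points, changed sign with equal peak numbers (-0.275), merging (-0.506) and without the 4 chromosomes (-0.513). It was between -0.988 and 1.17 without 1 H3K27me3 library, negative without either H3R2C library or H3WT replicates 1 and 2, and between -0.00544 and 0.320 without 1 HA library, and it passed the threshold under no alternative run. It was furthest from 0 in intervals under all 8 peaks (1.83, p = 0.0571 by exact permutation) and was 0.599 with the upper 50% of peaks. With the replicate block its exact permutation p was 0.889.

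Called H3K27me3 regions at recurrent HA regions are given for H3R2C, H3R8C, H3R26C, the pooled contrast and H3R26C against H3R2C. They were 177, 18, 121, 248 and 269 of 481. They were 53, 1, 71, 80 and 79 of 183 with only regions in all 8 libraries. At an adjusted p under 0.001 they were 74, 7, 25, 73 and 123 of 481. Without 1 library they were 117 to 181, 15 to 22, 75 to 106, 176 to 225 and 209 to 263, where a lone library is assumed to vary like the others. With the replicate block they were 175, 17, 109, 240 and 271. Deviations of same-numbered libraries correlated between genotypes by 0.00141 to 0.158, so the numbers were not taken as pairs. Pseudocount, scaling, maximum signal and the variance trend left these counts within 1.5 times. At an adjusted p under 0.001 (limma), 14.6% of the 481 were higher in H3R2C, against 6.62% of all regions, and 0.832% lower, against 1.91%. In H3R26C, 4.16% were lower, against 1.02% of all regions, and 1.04% higher, against 1.88%. Depth bears on what a list calls, and the values here were not corrected for it.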
